A study of Mus musculus with 9 samples.

Results

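The acetylcholine receptor and endplate genes are 10 mouse genes of the muscle side of the neuromuscular junction, chosen by name and found by Ensembl identifier among the 47529 genes listed in any of the 9 deposited count files. They hold the 5 muscle receptor subunits (Chrna1, Chrnb1, Chrnd, Chrng and Chrne), the 4 endplate organizers Musk, Rapsn, Dok7 and Lrp4, and the esterase gene Ache, and all 10 were listed in every file. RNA was sequenced from muscle tissue and cultured muscle cells of C57BL/6 mice, to set transcript levels beside histone lactylation. Whole gastrocnemius (GAS, n = 3) was calf muscle of female mice aged 8 to 12 weeks, and holds nerve ends, Schwann cells, vessels and connective tissue beside the fibers. Primary myoblasts (MB, n = 2) are the dividing precursors, kept in growth medium and given PBS as the control. Lactate-treated MB (n = 2) grew in the same medium with sodium-L-lactate added in PBS to 10 mM. Primary myotubes (MT, n = 2) were MB that reached 80% confluency and then spent 3 days in medium with 2% horse serum, and they are also PBS controls. The labels name no motor neurons, nerve or added agrin in these cultures, they call the libraries biological replicates without saying which mice or cultures they came from, and the p-values below therefore measure only the spread among these libraries.

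The muscle acetylcholine receptor is a ligand-gated channel built as a ring of alpha, beta and delta subunits with a gamma subunit in fetal muscle or an epsilon subunit at the adult endplate. Agrin from the motor nerve binds LRP4, which activates the receptor kinase MuSK together with its cytoplasmic activator DOK7, and rapsyn then holds the receptors in clusters, while acetylcholinesterase ends transmission by splitting acetylcholine. In culture, the fusion of myoblasts into myotubes is known to switch on receptor genes through myogenic basic helix-loop-helix factors, which bind the letters CANNTG (the E-box), and the letters CCGGAA (the N-box) are a known binding site of ETS factors in synaptic genes such as Chrne.

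Promoter sequences are shown for the fetal and the adult subunit gene, whose order by level was opposite in culture and muscle, for Chrna1 and Musk, and for Chrnb1 as the subunit gene whose MT and MB levels overlapped. Each run, from RefSeq on GRCm38.p6 (mm10 coordinates), is written 5′ to 3′ on the gene's strand. It begins 250 bases before the RefSeq start and ends at the base before an annotated exon of the gene, with E-boxes and N-boxes in capitals. The Chrng window lies within the gene's annotated span, ahead of the RefSeq start.
Chrng, chr1:87205561-87205809, plus strand: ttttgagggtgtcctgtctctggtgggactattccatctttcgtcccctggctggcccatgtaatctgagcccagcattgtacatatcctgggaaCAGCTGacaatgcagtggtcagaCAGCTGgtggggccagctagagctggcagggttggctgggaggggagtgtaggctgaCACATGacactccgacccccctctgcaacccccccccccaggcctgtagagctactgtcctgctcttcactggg
Chrne, chr11:70619217-70619444, minus strand: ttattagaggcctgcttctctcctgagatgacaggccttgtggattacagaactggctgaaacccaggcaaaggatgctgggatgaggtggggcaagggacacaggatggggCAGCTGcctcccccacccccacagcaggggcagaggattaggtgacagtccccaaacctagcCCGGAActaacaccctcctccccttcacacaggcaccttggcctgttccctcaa
Chrna1, chr2:73580339-73580588, minus strand: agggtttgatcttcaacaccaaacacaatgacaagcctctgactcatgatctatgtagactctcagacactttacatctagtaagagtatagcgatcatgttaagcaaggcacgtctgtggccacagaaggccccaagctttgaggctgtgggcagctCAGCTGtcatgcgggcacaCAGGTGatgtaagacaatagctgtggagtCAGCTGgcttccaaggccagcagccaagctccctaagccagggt
Musk, chr4:58285712-58285959, plus strand: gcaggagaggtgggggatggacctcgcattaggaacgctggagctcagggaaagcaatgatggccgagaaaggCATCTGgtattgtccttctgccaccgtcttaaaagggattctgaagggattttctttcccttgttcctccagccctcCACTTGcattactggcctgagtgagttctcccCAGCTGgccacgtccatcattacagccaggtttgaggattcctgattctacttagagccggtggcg
Chrnb1, chr11:69795944-69796187, minus strand: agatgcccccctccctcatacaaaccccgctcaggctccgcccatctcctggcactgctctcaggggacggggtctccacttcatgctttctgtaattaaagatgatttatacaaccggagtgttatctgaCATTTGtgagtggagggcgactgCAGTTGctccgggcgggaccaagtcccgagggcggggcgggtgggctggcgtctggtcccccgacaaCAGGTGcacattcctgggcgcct

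Promoters of 7 of the 10 genes were in the table used. The CAGCTG form of the E-box, a letter run that reads the same on both strands, was found in the windows of 250 bases of 4 of these 7 genes. It began at -155 and -132 in Chrng, at -138 in Chrne, at -92 and -44 in Chrna1 and at -68 in Musk, counted from the RefSeq start. It was absent from those of Chrnb1, Dok7 and Ache, and 13.0% of 32851 mouse promoter windows of the same length held it. Any CANNTG, of which CAGCTG is a special case, was present in 66.2% of those promoters and in a window of each of the 7 genes. A second Dok7 window held no CANNTG. No bases of that window or of the Ache window were left once annotated exons were taken out. The N-box, searched on both strands, was found only in the Chrne window, at -76, and in 12.03% of all promoters.

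On mm10, Chrnd (ENSMUSG00000026251, chr1:87190607-87200070, plus strand) and Chrng (ENSMUSG00000026253, chr1:87204657-87212694, plus strand) are neighbours, 4586 bp apart. Chrna1 (ENSMUSG00000027107) lies at chr2:73563215-73580338, Chrnb1 (ENSMUSG00000041189) at chr11:69784036-69795943 and Chrne (ENSMUSG00000014609) at chr11:70614883-70619216, all 3 on the minus strand. The other genes are on the plus strand: Musk (ENSMUSG00000057280) at chr4:58285960-58374303, Rapsn (ENSMUSG00000002104) at chr2:91035620-91045729, Dok7 (ENSMUSG00000044716) at chr5:35056766-35087839, Lrp4 (ENSMUSG00000027253) at chr2:91457511-91513779 and Ache (ENSMUSG00000023328) at chr5:137287519-137294466. The values are counts over exons of whole genes. Rapsn shares 4 exonic bp with the antisense gene Gm13778 and Ache shares 98 exonic bp with the antisense gene Gm42456, which held at most 41 and 2 counts, respectively, in a library.

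Total counts were 19307793 to 19941574 in the GAS libraries and 5198247 to 10839516 in the 6 cultured libraries. As for the labelled cell types, 6 of 6 myotube markers passed the test as higher in MT, where 11.2% of all genes tested did. The 4 myoblast markers summed to 981 to 1423 CPM (normalised counts scaled to a fixed library size) in MB and to 244 to 499 CPM in MT. Most of the MB sum was Myod1, at a mean of 944 CPM. Of these 4 markers, 2 passed as lower in MT (Pax7 and Myod1), where 7.11% of all genes tested did. Myf5 and Vcam1 did not pass (edgeR adjusted p = 0.272 and 0.101). The first MT library stood apart, with 28599 genes detected against 15548 to 17965 in the other cultured libraries. Fibroblast markers (Pdgfra, Col1a1, Dcn, Lum) summed to 13536 and 1876 CPM in the MT libraries and to 2.17 and 2.57 CPM in the MB libraries. Most of the MT sum was Col1a1, at a mean of 7439 CPM, against 259 for Dcn, 4.10 for Pdgfra and 3.40 for Lum. Col1a1 and Dcn passed the test as higher in MT, and Lum was not tested. Pdgfra, at a mean of 1.52 CPM in MB, did not pass (edgeR adjusted p = 0.282). The difference in these markers moves with every MT and MB comparison below. Its part in them was not tested, and in bulk RNA fewer cells of a type cannot be told apart from less RNA per cell. In the first MB and the first lactate-treated library, 9.2% and 13.8% of counts fell on the ribosomal RNA-like gene CT010467.1, against 0.131% to 0.575% in the other cultured libraries.

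The comparison of MT with MB asked how these genes differ between precursors and differentiated cells. Chrng, the fetal subunit, rose 5.67-fold, Musk 3.66-fold, Lrp4 3.76-fold and Ache 15.0-fold in MT, and Chrne was read only in MT. The subunit genes Chrna1 and Chrnd were higher in both MT libraries than in both MB libraries but did not pass the test, and Chrnb1, Rapsn and Dok7 had overlapping ranges. In all, 5 of the 10 genes were called higher and 0 lower by edgeR's quasi-likelihood test (Benjamini-Hochberg adjusted p below 0.05 over all 12921 genes tested, with an absolute log2 fold change above 0.5), where 11.2% of all genes tested were called higher and 7.11% lower. DESeq2 also called 5 higher and 0 lower, and 0 of the 10 genes were lower at an unadjusted p under 0.05 by either tool. Both MT libraries lay above both MB libraries for 7 of the 10 genes, and for 32.9% of all genes tested. Chrne and Ache entered the test only through their MT counts. Without the first MT library, 2 of the 10 genes (Chrng and Ache) were still called, and 318 genes in place of 919 were called lower.

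**Figure D1:**
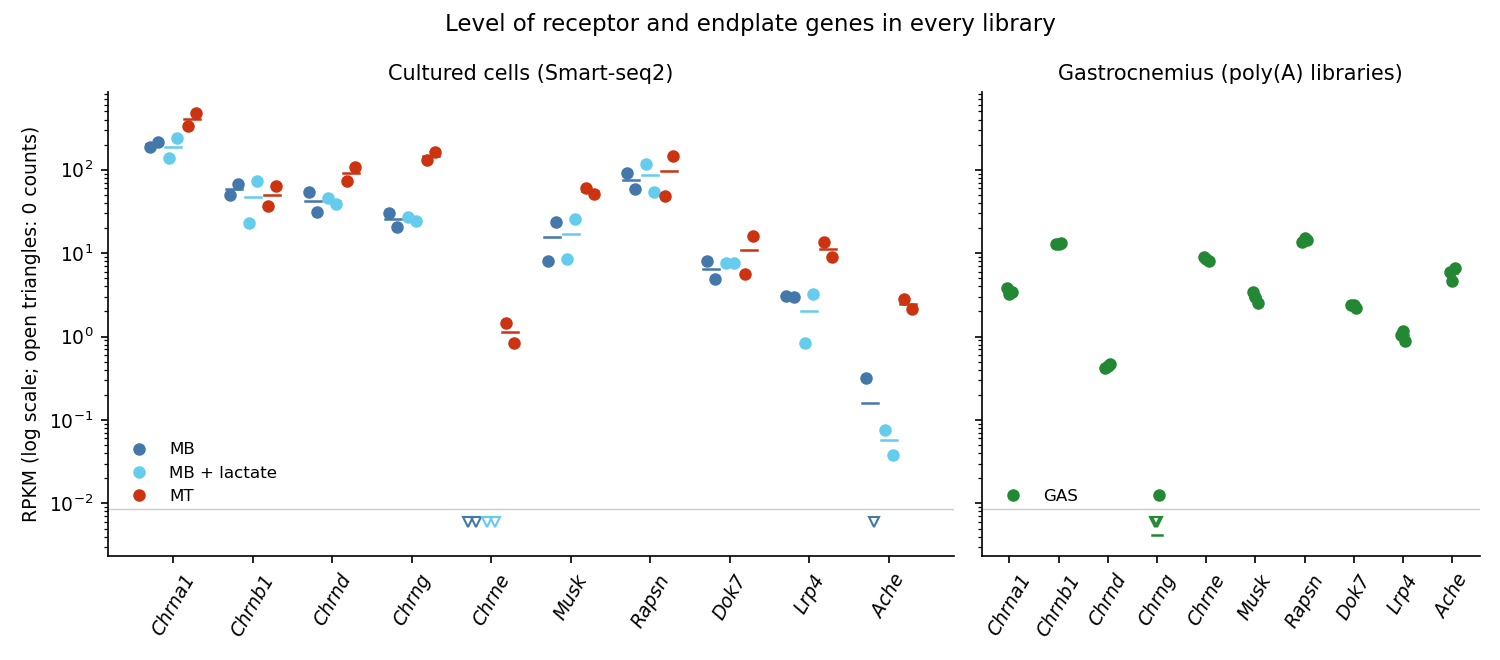
Level of each gene in every library, in RPKM (CPM per kilobase of exon, log axis), with a short line at each group mean, for cultured cells (left) and gastrocnemius (right), which were normalised apart. Open triangles are libraries with 0 counts. Chrne has none in the 4 MB and lactate-treated libraries, Chrng has 0, 0 and 1 counts in GAS, and both MT libraries lie above the MB libraries for Chrng, Musk, Lrp4 and Ache.

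Chrng stood at 552 and 673 CPM in the MT libraries and at 127 and 85.2 CPM in the MB libraries. Both MT libraries lay far above both MB libraries. The difference was 2.50 on the log2 scale (SE 0.50, 95% interval 1.40 to 3.61, edgeR adjusted p = 0.0065), and Chrng was called under each alternative run, with log2 fold changes of 2.18 to 2.90 when 1 library was left out.

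Chrne, which encodes the adult epsilon subunit, was read 33 and 11 times in MT (2.46 and 1.40 CPM) and 0 times in both MB libraries. Set against a floor of 3 counts in each MB library, which is 0.368 and 0.362 CPM, its mean level in MT was at least 5.29-fold higher (edgeR adjusted p = 0.016). These are few reads, and without the first MT library the call was lost (edgeR adjusted p = 0.0807). Reads of Chrne and of 4930544D05Rik, a gene on the opposite strand within it that had 5 and 2 counts in MT, do not share exonic bases in the annotation used.

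Chrna1, the alpha subunit, which carries the main part of the acetylcholine binding site, had the highest RPKM of the 10 genes in every cultured library. It stood at 1456 and 2094 CPM in MT and at 819 and 950 CPM in MB. The mean was 1775 ± 451 CPM in MT and 885 ± 92.2 CPM in MB (SD, n = 2 each), a log2 difference of 1.00 (SE 0.52, interval -0.15 to 2.14) that did not pass (edgeR adjusted p = 0.21). Chrnd, the delta subunit, had 242 and 357 CPM in MT and 178 and 103 CPM in MB, so that its groups were apart as well. Its log2 difference was 1.06 (SE 0.49, interval -0.01 to 2.13, edgeR adjusted p = 0.158).

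Chrnb1, the beta subunit, gave 93.1 and 162 CPM in MT and 125 and 173 CPM in MB. The groups overlapped and the log2 difference was -0.23 (SE 0.44, interval -1.20 to 0.74, edgeR adjusted p = 0.759). Chrnb1 was the 1 subunit gene whose mean was lower in MT than in MB, at 127 ± 48.4 against 149 ± 34.0 CPM (SD, n = 2 each), and the sign turned to a log2 difference of 0.05 without the first MT library.

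Relative to the other subunits, the fetal subunit mRNA took a larger place in MT. The ratio of Chrng to Chrna1, both in RPKM, was 0.399 and 0.339 in MT and 0.164 and 0.0945 in MB, and the ratio of Chrng to its neighbour Chrnd was 1.80 and 1.49 in MT and 0.566 and 0.655 in MB. Neither ratio overlapped between the groups. On the log2 scale the ratios differed by 1.56 and 1.43, with p = 0.333 for each in an exact two-sided permutation test, which is the smallest p that 2 against 2 libraries can give. The ratio of Chrnb1 to Chrna1 ran the other way, at 0.111 and 0.134 in MT and 0.264 and 0.315 in MB (exact permutation p = 0.333).

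Summed over the 5 subunits in RPKM, Chrng made up 21.5 ± 2.19% of the receptor subunit mRNA in MT and 7.81 ± 2.44% in MB, while Chrnb1 made up 7.12 ± 1.05% in MT and 17.8 ± 3.48% in MB (mean ± SD, n = 2 each). Chrna1 held 58.2 ± 0.826% in MT and 61.3 ± 4.31% in MB, and Chrnd 13.1 ± 0.428% and 13.1 ± 5.34%, so that the shares of these subunits overlapped. By the length of the longest transcript, Chrng made up 30.2% and 26.4% in MT and 13.1% and 8.46% in MB, and the Chrna1 shares no longer overlapped, at 50.5% and 52.1% in MT and 53.3% and 59.8% in MB. Chrne reached 0.177 ± 0.106% in MT.

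**Figure D2:**
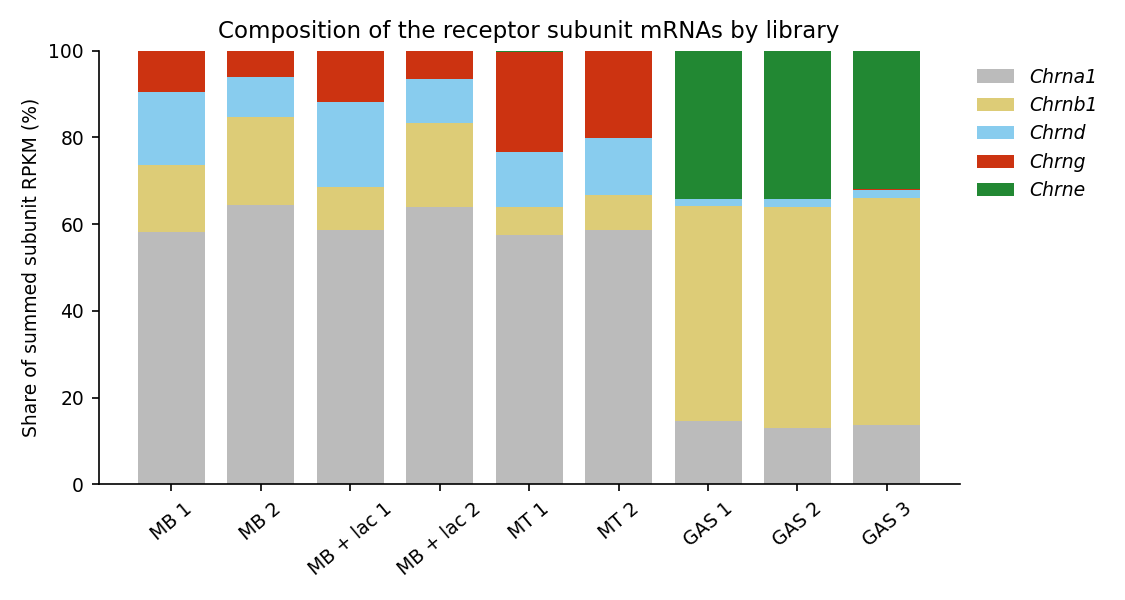
Share of each of the 5 subunit genes in their summed RPKM (%), 1 bar per library. The Chrng share is 19.9% and 23.0% in MT and 6.08% to 11.8% in the MB and lactate-treated libraries, and in GAS the place of Chrng is taken by Chrne at 32.0% to 34.2%, with Chrnb1 as the largest share.

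Of the fetal and adult subunits together, Chrng made up 98.9% and 99.5% of the RPKM in the MT libraries and 100% in the MB and lactate-treated libraries. By counts, the exact (Clopper-Pearson) 95% intervals were 99.4% to 99.7% and 99.6% to 99.9% in MT, with lower bounds of 99.6% and 99.5% in MB. These intervals cover counting error only. In whole muscle the order was the opposite, with 0, 0 and 1 counts of Chrng against 298, 286 and 263 counts of Chrne in the 3 GAS libraries. Summed over GAS, Chrng held 1 of 848 counts, or 0.118% (exact 95% interval 0.00299% to 0.655%). A count of 0 in a GAS library allows up to 0.152 CPM of Chrng, so that a low level was not detectable at this depth.

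GAS libraries were made with poly(A) selection and the cultured libraries with Smart-seq2, which amplifies full-length cDNA, so that no test was run between muscle and culture and levels were ordered only within each. In GAS, Rapsn was highest at 14.4 ± 0.830 RPKM, followed by Chrnb1 at 13.0 ± 0.224, Chrne at 8.53 ± 0.439 and Ache at 5.81 ± 1.03 RPKM (SD, n = 3 each), and none of these neighbours overlapped in their library values. Chrna1 and Musk came next at 3.50 ± 0.284 and 2.96 ± 0.423 RPKM and overlapped with each other. Dok7 at 2.32 ± 0.104, Lrp4 at 1.04 ± 0.147 and Chrnd at 0.446 ± 0.0283 RPKM closed the list above Chrng. With the length of the longest transcript in place of all exons, a setting added after seeing the data, Rapsn (16.2 RPKM) and Chrnb1 (15.3 RPKM) overlapped and Dok7 (3.57 RPKM) moved up among Chrna1 (3.50 RPKM) and Musk (3.27 RPKM). Endplates cover a small patch of each adult fiber and are diluted in whole muscle. Of the genes read in GAS, 89.2% lay below Rapsn and 83.7% below Chrne in RPKM.

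In GAS, Chrnb1 mRNA exceeded that of Chrna1 3.42-, 3.96- and 3.82-fold per length, whereas in each cultured library Chrna1 was the higher of the pair. Chrnb1 made up 51.1 ± 1.38% of subunit RPKM in GAS, Chrne 33.5 ± 1.31%, Chrna1 13.7 ± 0.810% and Chrnd 1.75 ± 0.142% (SD, n = 3). The 6 Schwann cell markers were all detected in each GAS library and summed to 20.8 to 39.1 CPM. Of the 5 motor neuron markers, only Isl1 had a count in GAS, at 0.101 to 0.311 CPM. In culture, all 5 were detected in the first MT library (15.6 CPM summed) and 2 in the second (3.31 CPM). In MB, 2 were detected in the first library (2.08 CPM) and 1 in the second (5.42 CPM). This was not particular to motor neuron markers. All 6 Schwann cell, 4 endothelium and 4 leukocyte markers were also detected in the first MT library. They summed to 8.49, 11.3 and 16.8 CPM there, against 1.14, 0.254 and 2.93 CPM in the second. Slc5a7, the choline transporter gene, had 178 and 18 counts in MT against 2 and 0 in MB. It entered the test only through its MT counts. Its log2 difference was 5.90 (edgeR adjusted p = 0.0160), a call lost without the first MT library. Isl1 was lower in both MT libraries than in both MB libraries, at a log2 difference of -1.37 that did not pass (edgeR adjusted p = 0.325).

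In MT, the order per length was Chrna1 at 405 ± 103 RPKM, then Chrng at 147 ± 20.6, Rapsn at 97.7 ± 69.2 and Chrnd at 91.0 ± 24.8 RPKM, of which the last 3 overlapped with their neighbours. By the longest transcript, Chrng (220.3 RPKM) lay above Rapsn without overlap. Musk at 55.8 ± 7.33 and Chrnb1 at 50.3 ± 19.1 RPKM overlapped, as did Lrp4 at 11.2 ± 3.11 and Dok7 at 10.9 ± 7.44 RPKM, and Ache at 2.47 ± 0.464 and Chrne at 1.14 ± 0.443 RPKM were lowest (SD, n = 2 each). In MB, Chrna1 led at 201.7 ± 21.0 RPKM, and Rapsn, Chrnb1 and Chrnd followed at 75.6 ± 23.6, 58.7 ± 13.4 and 42.6 ± 16.1 RPKM with overlapping neighbours. Chrng came next in MB at 25.5 ± 7.15 RPKM, where its range overlapped with that of Musk at 15.8 ± 10.8 RPKM. By the longest transcript, Chrng in MB (38.2 RPKM) lay above Musk without overlap and overlapped with Chrnd (47.5 RPKM). Chrna1 was above 98.6% of the genes read in MB and 99.7% of those read in MT, and Chrng was above 98.9% in MT.

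Among the organizers, the kinase gene Musk and the agrin receptor gene Lrp4 rose in MT. Musk had 230.3 and 191 CPM in the MT libraries and 30.6 and 88.5 CPM in the MB libraries. Its groups were apart, although the MB libraries differed from each other by more than the MT libraries did. The log2 difference was 1.87 (SE 0.53, interval 0.71 to 3.03, edgeR adjusted p = 0.0312), and it ran from 1.33 without the first MB library to 2.71 without the second. Musk was not called without the first MT library (edgeR adjusted p = 0.126), without the first MB library (edgeR adjusted p = 0.0888) or with all 6 cultured libraries in the fit (edgeR adjusted p = 0.065).

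Lrp4 had 141 and 94.9 CPM in MT and 32.4 and 31.0 CPM in MB. The MB libraries were close together, and both MT libraries lay well above them. The log2 difference was 1.91 (SE 0.46, interval 0.90 to 2.93, edgeR adjusted p = 0.0158). It was not called without the first MT library (edgeR adjusted p = 0.217) or with all 6 cultured libraries in the fit (edgeR adjusted p = 0.0565).

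Rapsn, the clustering protein gene, gave 87.9 and 264 CPM in MT and 166 and 106 CPM in MB. Its MT libraries enclosed the MB libraries, and the log2 difference of 0.31 (SE 0.54, interval -0.89 to 1.51) did not pass (edgeR adjusted p = 0.734) and turned to -0.60 without the second MT library. The Dok7 libraries overlapped as well, with 24.0 and 68.9 CPM in MT and 34.7 and 21.1 CPM in MB, and a log2 difference of 0.68 (SE 0.57, interval -0.57 to 1.93, edgeR adjusted p = 0.445) that turned to -0.18 without the second MT library. For both genes the second MT library was the highest of the 4.

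Ache had 174 and 78 counts in MT and 12 and 0 counts in MB, or 13.0 and 9.92 CPM against 1.47 and 0 CPM. The groups were apart, with a log2 difference of 3.90 (SE 1.15, interval 1.35 to 6.46, edgeR adjusted p = 0.040). The size rested on the 12 counts of the first MB library, since the fitted log2 difference was 9.84 without it and 2.88 without the second MB library. In GAS, Ache stood at 27.8, 21.7 and 31.1 CPM.

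**Figure D3:**
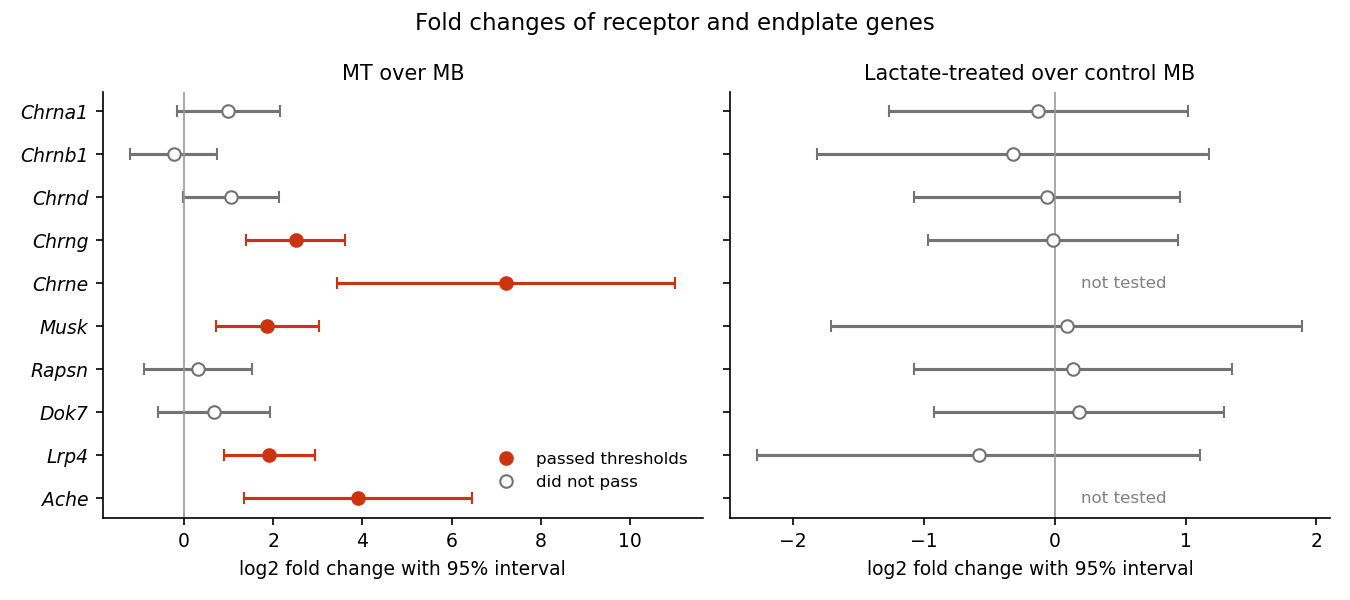
Log2 fold changes with 95% intervals from edgeR for MT over MB (left) and lactate-treated over control MB (right). Filled red points passed an adjusted p of 0.05 with an absolute log2 fold change above 0.5. The 5 genes called in MT have intervals above 0, the 8 genes tested under lactate have intervals that cross 0, and the Chrne value at 7.22 is fitted against 0 counts in MB.

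The other genes of the junction were grouped by role, and their counts and medians are given as a description. Of 12 genes of esterase anchors and synaptic basal lamina, 9 were tested and 5 rose in MT, where 11.2% of all genes tested were called higher. Their median log2 difference was 1.84 against 0.072 over all genes tested. Colq, the collagen tail that anchors acetylcholinesterase, rose by 7.09 on the log2 scale (SE 0.99, edgeR adjusted p = 0.00082), from 2 and 0 counts in MB to 224 and 161 counts in MT, and it stood at 6.35, 6.99 and 7.11 CPM in GAS. Lama4, a laminin chain of the synaptic basal lamina, had 0 counts in MB and was at least 86.2-fold higher in MT, and Col13a1, a transmembrane collagen of the junction, rose by 5.74 (SE 1.19). Nid2 at 3.70 and Lamb2 at 1.59 also passed, the latter only with the first MT library (edgeR adjusted p = 0.0541 without it). Colq, Lama4 and Col13a1, at 0 to 2 counts in an MB library, entered the test only through their MT counts, so that the count and median of this list rest in part on genes that had to differ. Basal lamina genes are also made by fibroblasts, of whose markers Col1a1 and Dcn passed the test as higher in MT and Pdgfra did not, as given above.

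Of the 13 postsynaptic scaffold genes, all were tested, 7 rose and 1 fell, where 11.2% of all genes tested were called higher and 7.11% lower. Their median log2 difference was 1.97, against 0.072 over all genes tested. Scn4a, the muscle sodium channel that is concentrated at endplates, had 0 counts in MB, entered the test only through MT and was at least 30.3-fold higher there. Pdzrn3, a ubiquitin ligase that acts on MuSK, rose by 3.88 (SE 0.62), Syne1, which holds nuclei beneath the synapse, by 3.23 (SE 0.66), and Ncam1 by 3.11 on the log2 scale. Sntb1 and Dtna of the dystrophin complex rose by 3.08 and 1.97, whereas Dtnb fell by 2.10 (edgeR adjusted p = 0.0429). Without the first MT library, the calls of Dtna (edgeR adjusted p = 0.0510) and Dtnb (edgeR adjusted p = 0.131) were lost.

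Of the agrin and MuSK signalling genes, most did not pass in either direction. Of 16 genes tested by edgeR, 0 rose (1 at an unadjusted p under 0.05, and 0 by DESeq2). In the other direction 2 fell (6 at an unadjusted p under 0.05, and 3 by DESeq2), against a share of 7.11% called lower among all genes tested. The 2 called lower by edgeR were the kinase genes Src, which fell by 2.12 (SE 0.63), and Pak1, which fell by 2.09 (SE 0.54). The median log2 difference was -0.89. Single genes lay on the other side, such as Fyn at 1.17 and Macf1 at 1.27, which did not pass. Agrn itself had 12.6 and 16.8 CPM in MT and 37.3 and 21.0 CPM in MB, a log2 difference of -1.02 (SE 0.53) that did not pass (edgeR adjusted p = 0.207).

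Of 14 neuregulin receptors and synaptic transcription regulators, 12 were tested, 4 rose and 2 fell, with a median log2 difference of 0.19. The shares over all genes tested were 11.2% called higher and 7.11% called lower. Myog, the myogenic factor that acts on receptor genes, rose by 3.81 (SE 0.61), the neuregulin receptor gene Erbb3 by 3.00 (SE 0.64), and the deacetylase genes Hdac9 and Hdac4 by 6.30 and 1.61, respectively. Hdac9, with 0 and 2 counts in MB, entered the test only through MT, and Hdac4 was not called without the first MT library (edgeR adjusted p = 0.145). The ETS factor gene Etv4 fell by 3.79 (SE 0.72). The myogenic factor gene Myod1 fell by 1.93 (SE 0.59, edgeR adjusted p = 0.0445). That call was lost without the first MT library, and also with a replicate block in the fit (edgeR adjusted p = 0.0573).

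None of the 5 receptor assembly genes (3 tested, median log2 difference 0.27) or the 5 glycosylation genes of congenital myasthenic syndromes (5 tested, median 0.05) passed in either direction by edgeR or DESeq2, with 0 at an unadjusted p under 0.05. The shares over all genes tested by edgeR were 11.2% called higher and 7.11% called lower. With so few genes tested, 0 calls do not set these lists apart from other genes. Of the 11 neuronal nicotinic subunits, 2 were tested and Chrna10 passed, with 20 and 11 counts in MT and 0 counts in MB, at least 3.96-fold higher (edgeR adjusted p = 0.0209, and 0.0807 without the first MT library). It entered the test only through its MT counts. All 11 had a count in the first MT library and 2 had one in the second, so that most of their MT reads came from 1 library.

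**Figure D4:**
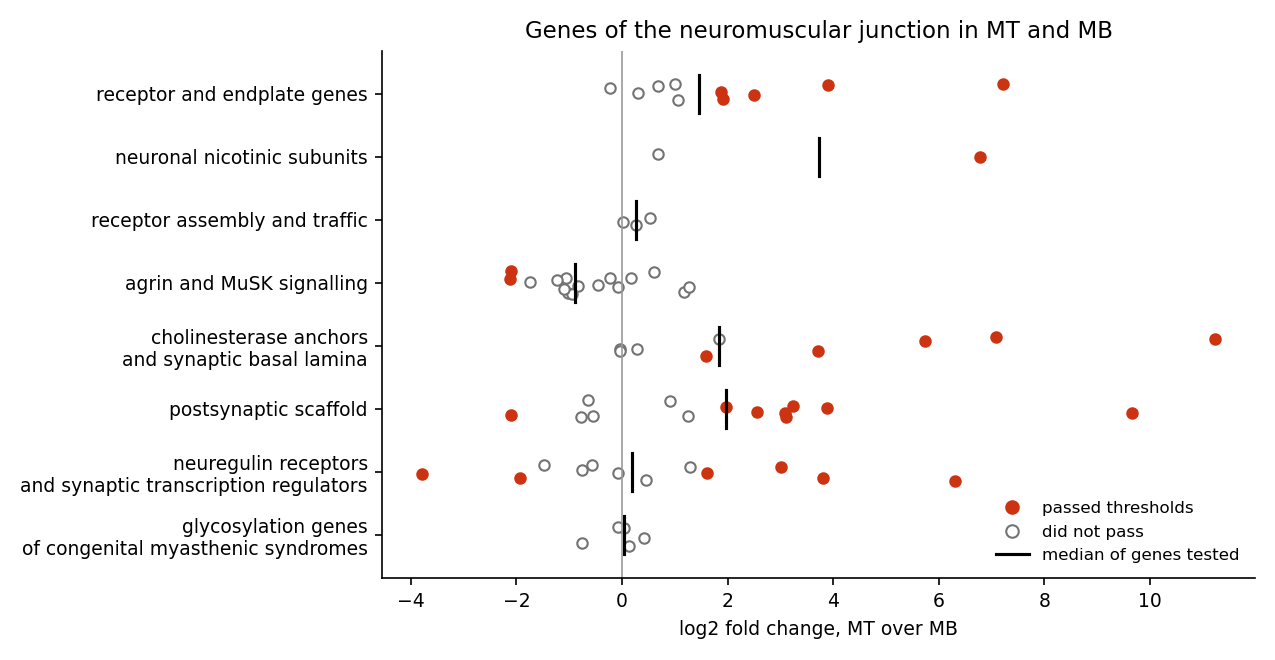
Log2 fold change of MT over MB (edgeR) for each tested gene of the receptor and endplate set and of the 7 other junction lists, with filled points for genes past the thresholds and a vertical bar at the median of the genes tested in the list. The medians of the scaffold and basal lamina lists lie at 1.97 and 1.84, and that of agrin and MuSK signalling at -0.89. The points past 6 were fitted against 0 to 2 counts in MB.

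Lactate-treated MB were compared with control MB to ask whether lactate moves myoblasts toward differentiation. The ranges of the treated and control libraries overlapped for all 10 genes, as they had to for Chrne at 0 counts, and no gene was called. The share of all genes whose ranges lay apart is not given here, so these overlaps are a description only. Of 11804 genes tested, 0% were called by edgeR's quasi-likelihood test and 0 by DESeq2, with 5 genes at an unadjusted p under 0.05 in edgeR, and the smallest adjusted p was 1.0. None of the 7 other junction lists held a called gene, or one at an unadjusted p under 0.05. The 5 of 11804 genes under 0.05 are fewer than would be expected with no effect at all. The main fit was unpaired, although deviations of same-numbered treated and control libraries correlated with r = 0.70. The lack of calls therefore does not show that lactate had no effect.

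Chrng stood at 114 and 102 CPM with lactate and at 127 and 85.2 CPM without, a log2 difference of -0.01 (SE 0.39, interval -0.97 to 0.95). The treated libraries lay between the controls, and the ratio of Chrng to Chrnd was 0.601 and 0.636 with lactate, between 0.566 and 0.655 without. The interval still holds a change of 0.95 upward on the log2 scale.

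Chrna1 had 600.1 and 1050.4 CPM with lactate, on both sides of the control libraries, and a log2 difference of -0.12 (SE 0.47, interval -1.27 to 1.02). Chrnd had 150.2 and 126 CPM, within the control range, at -0.06 (SE 0.42, interval -1.07 to 0.96), and Chrnb1 had 58.0 and 183 CPM, at -0.32 (SE 0.61, interval -1.81 to 1.18). Chrne had 0 counts in all 4 libraries and was not tested. Each count of 0 allows up to 0.533 CPM in a lactate-treated library.

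Musk had 32.0 and 96.7 CPM with lactate and 30.6 and 88.5 CPM without, so that libraries of the same number were closer than those of the same treatment, and its log2 difference of 0.09 has a wide interval of -1.71 to 1.89 (SE 0.74). The first library of each group is the one with the high share of CT010467.1 counts given above, whose part in this was not tested. Lrp4 gave 8.78 and 34.0 CPM with lactate, at -0.58 (SE 0.69, interval -2.27 to 1.11), the widest bound among the 8 genes tested. Rapsn and Dok7 had log2 differences of 0.14 (interval -1.08 to 1.35) and 0.19 (interval -0.92 to 1.29). Ache had 2 and 1 counts with lactate and 12 and 0 counts without, too few to pass the filter.

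Across the 6 cultured libraries, the 10 genes did not all vary alike. Pearson's r on log2(CPM + 1), given as a description over 6 points of which the 2 MT libraries lie apart for many genes, was 0.94 for Chrng with its neighbour Chrnd, 0.98 for Chrng with Ache and 0.87 for Musk with Lrp4. Rapsn followed Dok7 (r = 0.80) more than it followed Chrng (r = 0.23) or Chrna1 (r = 0.03), and Chrnb1 had an r of -0.05 with Chrng.

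Among 13162 genes, those most like Chrng by this measure were Myl4, the embryonic and atrial myosin light chain (r = 0.999), Lgals3bp (0.998) and Tspan7 (0.998). Myl4 had 1215 and 3275 CPM in MT against 5.06 to 15.3 CPM in the other 4 libraries. The genes most like Chrna1 were Adcy7 (0.995), Hey1 (0.994) and Nuak1 (0.994), and those most like Musk were Birc2, Gm37954 and Elmod2 (0.997 each). Among those most like Chrne were Fam213b and Armh4, which were at 0 counts in all 4 MB and lactate-treated libraries and were read in MT, more in the first than in the second.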

How the data were processed

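RNA was measured in 9 libraries (3 GAS, 2 MT, 2 MB, 2 lactate-treated MB). Per the labels, the authors trimmed reads with Trim Galore 0.6.6, aligned them to mm10 with HISAT2 2.2.1 and counted them per gene with featureCounts (Subread 2.0.1). The cultured libraries were made by Smart-seq2 from 5 ng of total RNA. The deposited values are raw counts, with no normalization and no pooling. The annotation release, strand setting and treatment of multi-mapping reads are not given in the sources used here.

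Groups were taken from the sample titles. Libraries were scaled by TMM, apart for GAS and for the cultured cells, to CPM, and RPKM were computed with union exon lengths from GENCODE M21. MT were compared with MB, and MB given lactate with their controls, by the quasi-likelihood test of edgeR 4.0.16 (R 4.3.3, robust, filterByExpr) on all genes, with Benjamini-Hochberg adjustment, a threshold of 0.05 and an absolute log2 fold change above 0.5. The code was tested on simulated data. Alternatives were RLE size factors, DESeq2 1.42.0, no filter, at least 10 counts in every library, a fit of all 6 cultured libraries, a replicate block, leaving out each library and, for shares, other lengths.

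The 10 genes and the other lists were chosen with earlier results of these data known. All 10 are named, with up to 3 called and non-overlapping genes per list and direction and the 3 genes most like each of 4 of them. Values of 2 genes that this rule or the lists name are not reported here. Other genes that passed in a list, and Agrn, Fyn and Macf1 were named after their values were seen. A count of 0 was set to a floor of 3 counts per library for bounds.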

Additional observations from a re-analysis of the deposited data

How the results depend on the processing

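Of the log2 fold changes of the 10 genes between MT and MB, 108 were recomputed under another setting: 4 changed sign, all of them among genes not called, and 9 of called genes missed the threshold. Chrng was called in each setting run. Leaving out a library, values ran from -0.61 to 0.055 for Chrnb1 (positive only without the first MT library), -0.60 (without the second MT library) to 0.86 for Rapsn, with -0.04 without the second MB library, and -0.18 (without the second MT library) to 1.21 for Dok7. The number of the 10 genes called higher, 5, was 3 with at least 10 counts in every library, which leaves Chrne and Ache untested, 3 with all 6 cultured libraries in one fit, and 2 to 5 when 1 library was left out (2 without the first MT library). Without a filter, Chrne missed the threshold (edgeR adjusted p = 0.347). Genes called higher over all genes numbered 1444, 767 with at least 10 counts in every library, where fewer genes are tested, and 968 to 2003 when 1 library was left out, and genes called lower 318 to 1497. When a library was left out, a group of 1 was assumed to vary like the other group.

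The labels do not say whether same-numbered libraries share a mouse or culture. Their deviations correlated with r = -0.13 between MT and MB and 0.70 between lactate-treated and control MB. With a replicate block, the 10 genes again had 5 calls in MT, beside 1457 genes higher and 849 lower. With the numbers crossed, chosen after seeing the data, 3 of the 10 genes were called. Under lactate, 0 genes were called in any setting by adjusted p, and 12 genes passed a nominal p of 0.01 with the replicate block.

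Of 80 lactate values, 17 changed sign, none of them called: Chrnd 0.0013 with RLE and with DESeq2, and Chrng 0.045 with RLE and with DESeq2 and 0.015 with the replicate block. Leaving out a library, values ran from -0.63 to 0.27 for Chrna1, -1.43 to 0.32 for Chrnb1, -0.39 to 0.47 for Chrnd, -0.27 to 0.38 for Chrng, -0.97 to 1.06 for Musk, -0.47 to 0.59 for Rapsn, -0.13 to 0.66 for Dok7 and -1.92 to 0.12 for Lrp4. The Chrng share of Chrng plus Chrne in MT was 98.9% and 99.5% by RPKM and 99.67% on average by counts without length. The causes of these shifts were not tested beyond what is named. With 2 libraries a group, a gene that was not called may still differ by any amount within its interval.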
